A study of Drosophila melanogaster with 3 samples.

Results

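The genes examined here are 10 Drosophila genes for insulator and architectural proteins: CTCF, su(Hw), BEAF-32, pita, Trl, Ibf1, Ibf2, Cp190, mod(mdg4) and Chro. They were taken by name from the 18164 genes annotated on the 6 chromosome arms used, of which 13945 are protein-coding, as are all 10. For each gene, every ChIP-seq summit from 2 kb upstream of the gene to its end was collected. The question was where, and how strongly, the tagged protein CG16863 was recovered at these genes. All embryos came from 1 transgenic line, CG16863-GFP, which carries the fusion protein CG16863-eGFP with GFP at its C-terminus. They were whole embryos of 0 to 16 h and of both sexes, immunoprecipitated with an antibody against GFP. The 3 samples are biological replicates of that single group, so there was no contrast between groups and no p-value. The labels do not say whether the untagged protein is also made in this line. Whole embryos mix cell types and stages, and the chromatin was sonicated to fragments of 200 to 800 bp, which limits how finely a summit can be placed. A control library was not analysed here, so recovery that does not depend on the tagged protein cannot be told apart from binding by it.

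Insulator proteins bind DNA at the borders of chromosome domains and can keep an enhancer from acting on a promoter across the border. In flies the sequence is read by DNA-binding factors, several of them zinc finger proteins, which bring in cofactors such as Cp190, mod(mdg4) and Chro. The cofactors hold protein-protein interaction domains, and many of their sites in the fly genome lie at promoters of housekeeping genes, often between a pair of genes transcribed away from each other.

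The DNA at the sites the results turn on is printed here, from the RefSeq Release 6 genome (dm6), forward strand, 5′ to 3′. Capitals mark matches, on either strand, to 8 words written down for this comparison, and to the word TTTAAA, which was added after the windows had been seen. The 8 words are TATCGATA (the DNA replication-related element, DRE), CGATA (the core bound by BEAF-32), GAGAG (bound by GAGA factor), GGTCACAC (promoter motif 1, bound by M1BP), AGGNGGCGC (a CTCF core), TGCATAC (a su(Hw) core), CAGCTG (an E-box) and CAGGTA (bound by Zelda). A DRE contains the CGATA word on both strands, so these matches overlap. The first line is the 29 bases centred on the summit of the highest peak among these genes, at Chro (chr3L:22878879-22878907). The second is the gap between the start sites of Chro and Ssl1, beside it (chr3L:22878985-22879088). Next comes the stretch from the start site of Cp190 to that of CG4338, which holds the main summit at its base 80 (chr3R:15275234-15275521). The fourth is the gap between opposite start sites within mod(mdg4), whose summit lies just outside it (chr3R:21365489-21365608). The fifth is the summit window in an intron of Trl (chr3L:14759402-14759602). The last pair comes from genes without a reproducible peak, upstream of su(Hw) (chr3R:14308664-14308864) and of Ibf2 (chr3R:9258494-9258702), for contrast.
Chro summit: gtgtattgcctgtCGATAgcTTTAAActa
Gap between Chro and Ssl1: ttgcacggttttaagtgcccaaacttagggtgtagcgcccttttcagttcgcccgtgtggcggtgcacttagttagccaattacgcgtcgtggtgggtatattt
Cp190 to CG4338: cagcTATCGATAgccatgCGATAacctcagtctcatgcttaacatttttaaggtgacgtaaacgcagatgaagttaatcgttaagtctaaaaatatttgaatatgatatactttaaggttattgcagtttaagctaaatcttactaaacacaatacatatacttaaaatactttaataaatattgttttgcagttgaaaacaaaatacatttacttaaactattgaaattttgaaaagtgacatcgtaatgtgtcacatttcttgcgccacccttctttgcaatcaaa
Gap within mod(mdg4): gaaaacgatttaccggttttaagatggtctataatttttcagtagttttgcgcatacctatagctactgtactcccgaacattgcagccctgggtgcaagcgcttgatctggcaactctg
Trl intron: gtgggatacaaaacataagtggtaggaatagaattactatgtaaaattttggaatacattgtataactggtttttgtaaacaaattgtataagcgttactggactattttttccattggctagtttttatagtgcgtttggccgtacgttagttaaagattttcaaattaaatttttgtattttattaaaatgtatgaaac
Upstream of su(Hw): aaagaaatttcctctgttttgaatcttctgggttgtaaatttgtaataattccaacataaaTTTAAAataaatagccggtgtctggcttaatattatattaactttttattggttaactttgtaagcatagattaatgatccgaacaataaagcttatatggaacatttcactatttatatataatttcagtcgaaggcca
Upstream of Ibf2: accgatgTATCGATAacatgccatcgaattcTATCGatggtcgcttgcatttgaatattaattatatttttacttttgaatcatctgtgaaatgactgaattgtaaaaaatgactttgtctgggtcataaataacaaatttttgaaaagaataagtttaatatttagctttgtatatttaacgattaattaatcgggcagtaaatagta

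These stretches differed in composition and in matches. A and T made up 70.5% of the Cp190 stretch, 72.6% of the Trl window and 49.0% of the gap between Chro and Ssl1. The 29 bases at the Chro summit held a CGATA word across the summit base, at chr3L:22878892-22878896, followed by TTTAAA. The Cp190 stretch held a DRE across the start site of Cp190, at chr3R:15275238-15275245. The stretch upstream of Ibf2 also held a DRE, at chr3R:9258501-9258508, and a CGATA word starting at the summit base, although the peak there was not reproducible. None of the 9 words was found in the Trl window or in the mod(mdg4) gap. A match is only a description of the letters, and its absence says nothing about the factor.

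Reproducible peaks are those of the authors' set chosen by irreproducible discovery rate (IDR) analysis, 3953 in all. The lists behind it held 24378, 30000 and 29769 relaxed peaks in replicates 1, 2 and 3, and 23571 in the pooled replicates. Signal values were divided by the median of each list over the reproducible peaks and are called relative signal, so that 1 is the median reproducible peak. The lowest reproducible peak has a relative signal of 0.619 on the pooled scale. The number of reads behind each peak is unknown, so no counting error is given.

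Reproducible summits lay in 7 of the 10 gene windows, namely those of Chro, Trl, Cp190, mod(mdg4), BEAF-32, pita and CTCF. Over all protein-coding genes the same rule gave 25.3% (3525 of 13945). Long genes offer more room for a summit, and the share was 13.6% in the 4650 shortest genes, 22.0% in the 4646 of middle length and 40.2% in the 4649 longest. Among the short genes 0 of 2 members had one (Ibf1 and Ibf2). Among those of middle length 2 of 2 did (BEAF-32 and CTCF), and among the long ones 5 of 6, where su(Hw) was the exception. Near a start site of the gene itself, within 500 bp, 6 of 10 had a reproducible summit, against 17.1% of protein-coding genes. The gene among the 7 without one was mod(mdg4). These counts describe 10 genes picked with earlier results of these data known, and no test was made of them.

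All 10 genes had at least 1 pooled relaxed summit, 48 different summits in all, and 12 of the 48 were reproducible. The median over members of the highest pooled relative signal was 1.04. It was 0.451 over the 9336 protein-coding genes with a pooled summit, 66.9% of all of them. Only 22 protein-coding genes, Chro among them, reached the 11.4 of Chro (0.158%), and 100 reached the 5.65 of Trl (0.717%). For Cp190 and mod(mdg4), 3.69% and 4.44% of protein-coding genes reached the same level. The shares were 13.1% for BEAF-32, 15.8% for pita and 17.6% for CTCF, against 39.4% for Ibf1 and Ibf2 and 40.9% for su(Hw). Neither these shares nor the medians were split by gene length, although long genes offer more room for a summit. Ibf1 and Ibf2 entered the median of the members with the same summit.

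**Figure D1:**
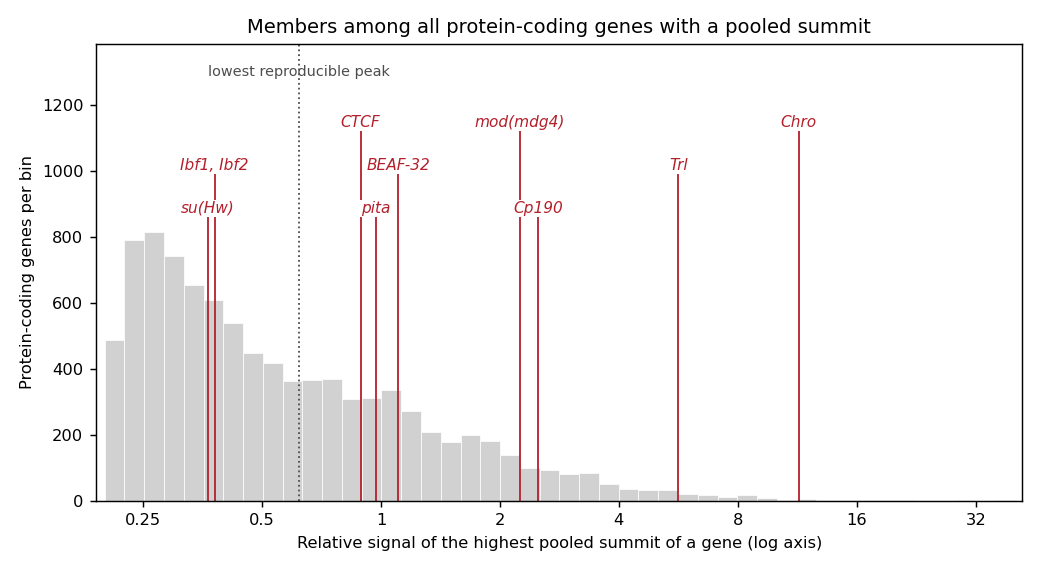
Number of protein-coding genes (vertical axis) by the relative signal of their highest pooled summit from 2 kb upstream to the gene end (horizontal log axis), with the 10 members as red lines whose height has no meaning. Chro (11.4) and Trl (5.65) stand in the right tail, and Ibf1, Ibf2 (0.380) and su(Hw) (0.365) lie left of the lowest reproducible peak (dotted line, 0.619).

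Among the cofactor genes, Chro carried the highest peak of the 10 genes. It encodes Chromator, a chromodomain protein of interbands that also acts on the mitotic spindle. The peak covered chr3L:22878693-22879110, and its relative signal was 11.2 in replicate 1, 10.7 in replicate 2 and 11.8 in replicate 3 (11.3 ± 0.573, SD, n = 3). It ranked 15th of the 3953 reproducible peaks, and 14th, 14th and 15th in the relaxed lists of the replicates. The summit lay 91 bp downstream of the distal start site of Chro, in its 5′ UTR, and 196 bp upstream of Ssl1, which encodes a subunit of the general transcription factor TFIIH. These genes are transcribed away from each other with 104 bp between their start sites, so the peak could not be assigned to one of them. The replicate summits lay within 24 bp of each other. This single peak held 94.7% of the summed pooled signal in the Chro window, and the other pooled summits there reached 0.375 and 0.267.

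Cp190 encodes the BTB domain protein that several fly insulator factors recruit. Its main peak, chr3R:15275218-15275428, had its summit 72 bp upstream of Cp190 and 209 bp upstream of CG4338, which is transcribed the other way, with 280 bp between the start sites. Relative signal there was 3.16, 2.42 and 1.65 in replicates 1, 2 and 3 (2.41 ± 0.755, SD, n = 3). The replicates spread more here than at any other gene's highest peak, in SD, and each was above the median reproducible peak. A second reproducible summit lay 2 bp upstream of CG4338, in a peak at chr3R:15275305-15275734 that overlaps the first. Its relative signal was 1.36 in replicate 1 and 0.565 in replicate 3. Replicate 2 had no summit within 100 bp of it, its nearest being that of the main peak, 161 bp away.

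mod(mdg4) encodes a family of BTB proteins made by joining a common start to many alternative ends, some of them by trans-splicing of separate transcripts, and 1 form is part of the gypsy insulator. The highest peak was not at the start of the gene but 11930 bp downstream of it, at chr3R:21365456-21365563. There the annotation lists start sites of 10 separate precursor genes, named pre-mod(mdg4), for alternative ends. The summit lay 17 bp downstream of the start site of pre-mod(mdg4)-E on the reverse strand. It was also 138 bp upstream of 7 precursors on the forward strand, among them pre-mod(mdg4)-V. The replicate summits spread over 79 bp, to both sides of the pre-mod(mdg4)-E start site. Relative signal was 2.10, 2.55 and 2.16 in the replicates (2.27 ± 0.245, SD, n = 3), so all exceeded the median reproducible peak by more than the spread. At the start site of mod(mdg4) itself the pooled summit 20 bp upstream reached only 0.257. In replicate 2 the summit nearest that start site, 15 bp upstream, was at 0.498, and in replicate 1 the one 10 bp upstream was at 0.261. The nearest in replicate 3 lay 278 bp upstream, at 0.248.

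A second reproducible summit in the mod(mdg4) window, at chr3R:21378638-21379067, lay 1452 bp upstream of the gene but 124 bp upstream of tin, on the other strand. tin encodes Tinman, the homeodomain factor needed for the heart. The relative signal was 0.904 in replicate 1 and 0.798 in replicate 3, both below the median reproducible peak. The nearest summit of replicate 2 was 105 bp away, just outside the 100 bp allowed, at 0.753.

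**Figure D2:**
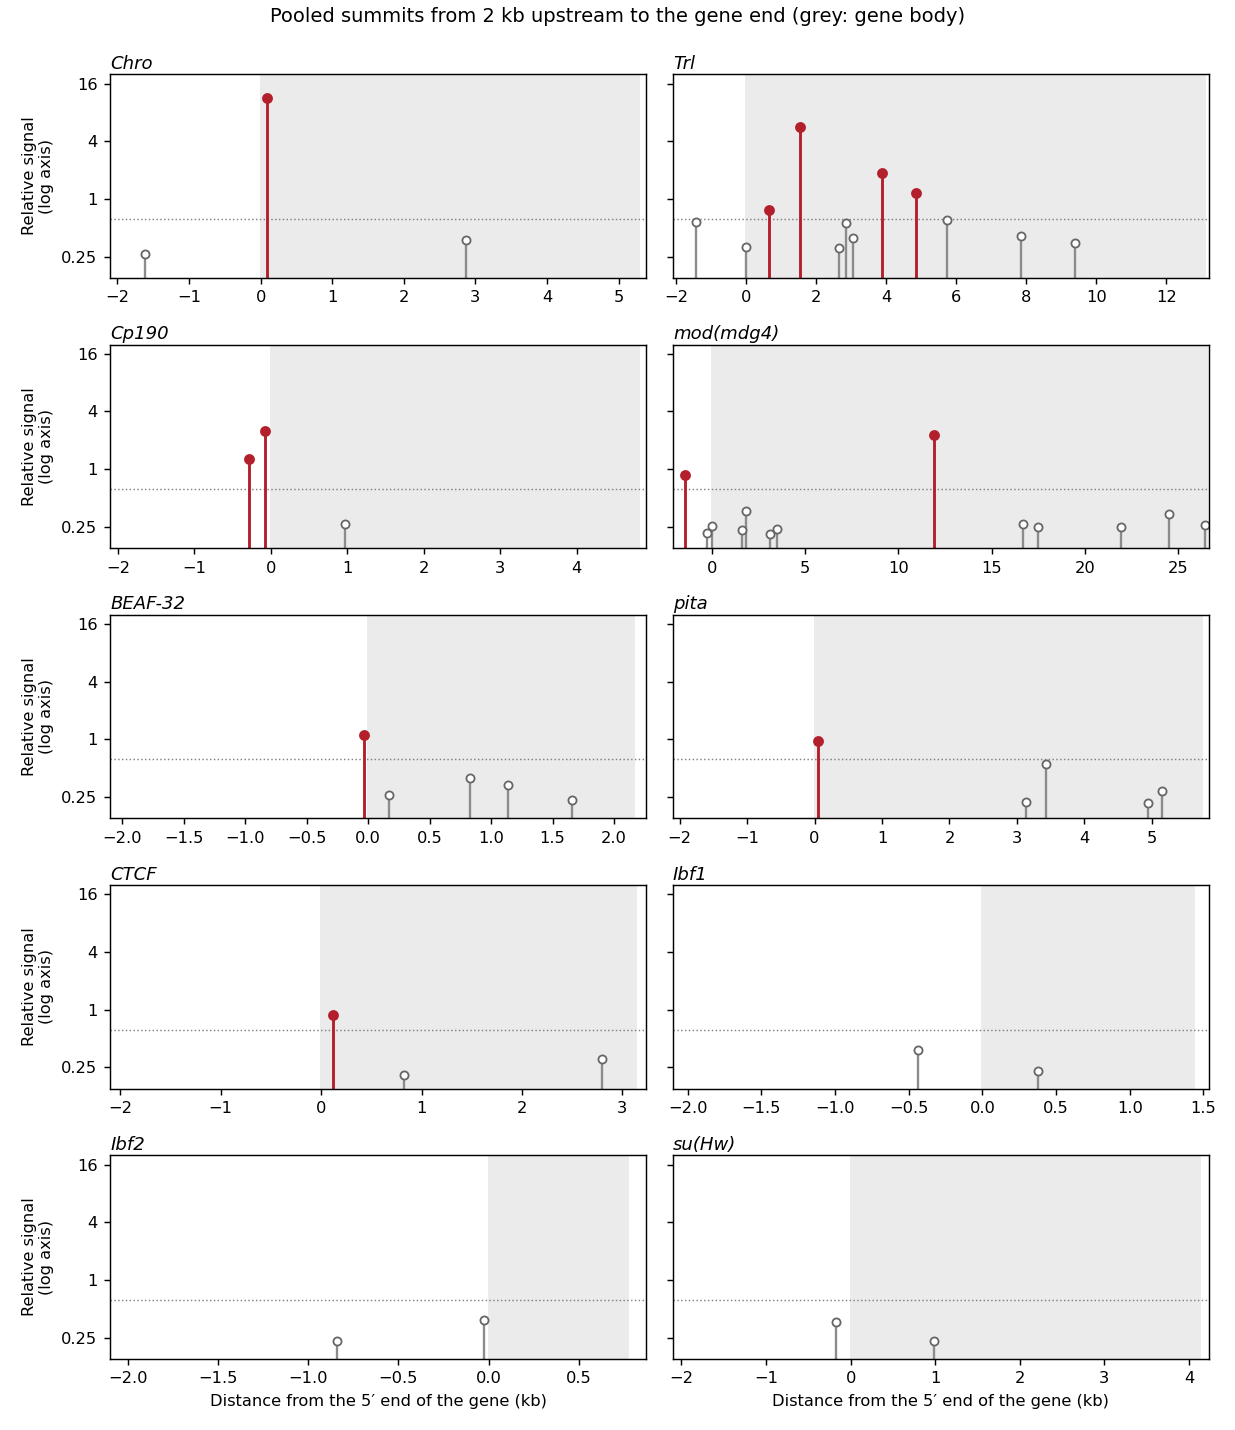
Relative signal of every pooled summit (log axis) against its distance from the 5′ end of each gene in kb, with the gene body in grey. Red points are the 12 reproducible summits, white points the relaxed summits that are not reproducible, and the dotted line is the lowest reproducible peak (0.619). Chro has 1 dominant summit, Trl has 4 reproducible ones inside the gene, and the highest one of mod(mdg4) lies 11930 bp into the gene.

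Among the DNA-binding factors, Trl held the most reproducible summits, 4 of the 12. It encodes GAGA factor, which binds GA-rich DNA at promoters and boundaries and also acts with the Polycomb and trithorax systems. The highest of the 4 was in an intron, at chr3L:14759319-14759709, away from the start sites. Its summit lay 1547 bp downstream of the most distal start site and 1540 bp upstream of the next one, with no start site of any gene within 500 bp. Relative signal was 5.17, 6.29 and 5.04 in replicates 1, 2 and 3 (5.50 ± 0.687, SD, n = 3), and the peak ranked 67th among reproducible peaks. The replicate summits lay within 8 bp of each other, the tightest of the 12.

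The other Trl summits were weaker, and their replicate values overlapped in part. At the internal promoter, 152 bp downstream of a Trl start site (chr3L:14756969-14757398), relative signal was 2.08, 1.33 and 2.04 (1.82 ± 0.422, SD, n = 3). Every replicate was lower there than at the intron peak. In an intron further on (chr3L:14755987-14756416) it was 1.47, 1.43 and 1.01, and the replicate summits spread over 112 bp, the widest of the 12. The fourth, 661 bp downstream of the distal start site (chr3L:14760173-14760602), had 0.424, 1.07 and 0.746. It was below the median reproducible peak in replicates 1 and 3, with a q value of 0.291 in replicate 1. At the distal start site itself the pooled list held only a summit of 0.317.

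BEAF-32 encodes the boundary factor that binds clustered CGATA words. Its peak, chr2R:14770221-14770650, had the summit 33 bp upstream of a BEAF-32 start site and inside the antisense RNA gene asRNA:CR42254. The summit was also 166 bp upstream of a start site of that RNA on the other strand, so it lay between diverging start sites. Relative signal was 1.18, 0.907 and 0.956 (1.01 ± 0.143, SD, n = 3), on both sides of the median reproducible peak.

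pita encodes a zinc finger boundary factor of the Bithorax region. Its peak, chr2R:23554452-23554881, had its summit 45 bp downstream of the pita start site, and no other gene started within 500 bp. The replicate summits lay further downstream, at 130, 92 and 105 bp in replicates 1, 2 and 3. Relative signal was 0.924, 0.892 and 1.20 (1.00 ± 0.168, SD, n = 3). A weaker pooled summit in this window missed the reproducible set, at 0.549 with a q value of 0.00725. It lay 32 bp upstream of Dcp-1, a caspase gene inside the pita locus, and 270 bp from an internal pita start site.

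CTCF encodes the fly counterpart of the vertebrate zinc finger boundary protein. Its peak, chr3L:7356380-7356809, had its summit 118 bp downstream of the single CTCF start site, in the 5′ UTR. Relative signal was 0.905, 0.730 and 0.780 (0.805 ± 0.0898, SD, n = 3), so all replicates were below the median reproducible peak. The replicate summits spread over 86 bp.

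su(Hw), Ibf1 and Ibf2 had no reproducible summit. su(Hw) (chr3R:14304455-14308589) encodes the zinc finger protein that binds the gypsy insulator, and Ibf1 and Ibf2 encode a pair of factors that bind DNA together and recruit Cp190. The highest pooled summit at su(Hw) lay 175 bp upstream of its start site and 325 bp upstream of Polr2I, an RNA polymerase II subunit gene. It had a relative signal of 0.365 and a q value of 0.192. The highest summits of the single replicates in the su(Hw) window were at different places: 2817 bp downstream of the start site in replicate 1 (0.290), 84 bp downstream in replicate 2 (0.329) and 170 bp upstream in replicate 3 (0.409). The nearest reproducible summit lay 2558 bp upstream of su(Hw), with a relative signal of 0.627, close to the lowest in the set.

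Ibf1 (chr3R:9258964-9260400) and Ibf2 (chr3R:9257727-9258501) are neighbours transcribed away from each other, with 462 bp between their start sites, and share both of their pooled summits. The higher of these lay 24 bp upstream of Ibf2 and 439 bp upstream of Ibf1, at a relative signal of 0.380 with a q value of 0.154. The highest replicate summits in the shared window reached 0.348, 0.454 and 0.415 in replicates 1, 2 and 3. They were not all at the same place: 285 bp downstream of the Ibf2 start site in replicate 1, 28 bp upstream in replicate 2 and 7 bp downstream in replicate 3. The nearest reproducible summit was 11945 bp from Ibf1 and 10708 bp from Ibf2. A gap between divergent start sites was thus present at genes with strong peaks (Chro, Cp190) and at genes without a reproducible one (su(Hw), Ibf1, Ibf2). Such start sites also flanked the weaker reproducible summits at BEAF-32 and near tin.

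**Figure D3:**
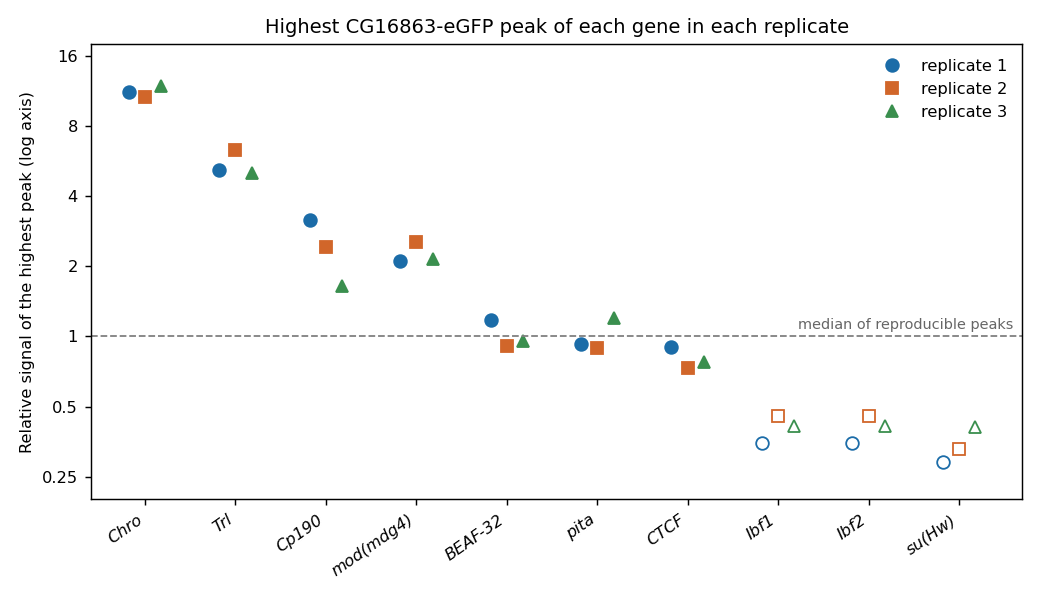
Relative signal (log axis) of the highest peak of each gene in each of the 3 replicates, with open symbols for genes without a reproducible summit, for which the highest relaxed summit anywhere in the window is shown. Chro and Trl lie above all other genes in every replicate, while BEAF-32, pita and CTCF lie near the median reproducible peak (dashed line, 1).

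In the order of their highest reproducible peaks, Chro came first, then Trl, Cp190, mod(mdg4), BEAF-32, pita and CTCF, and Chro was 14.0 times as high as CTCF. Chro exceeded Trl 2.05-fold, Trl exceeded Cp190 2.28-fold and mod(mdg4) exceeded BEAF-32 2.24-fold, each in 3 of 3 replicates and without overlap of their ranges. Cp190 and mod(mdg4) did not differ beyond their spread, since Cp190 was higher in 1 of 3 replicates. BEAF-32 was above pita in 2 of 3 replicates, with overlapping ranges. pita was above CTCF in 3 of 3 replicates, by 0.199 on average, but their ranges overlapped. With 3 replicates an exact two-sided sign-flip permutation test of such a difference cannot go below p = 0.25, so none was run.

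The 12 reproducible summits were alike in some respects and not in others. All 12 had the lowest q value in the pooled list, 0.000142, as did 3512 of the 3953 reproducible peaks. Of the 12, 8 were above the median reproducible peak in pooled signal. Within 500 bp of a start site of the member gene lay 7 summits, 3 lay in introns of Trl, and the 2 at mod(mdg4) lay only near start sites of other annotated genes. A start site of another gene was within 500 bp of 6 of the 12. Replicate summits within 100 bp existed in all 3 replicates for 10 summits and in 2 replicates for the other 2, with a median spread of 31.5 bp. Trl also had 3 pooled summits just below the set, at 0.597, 0.570 and 0.564, all with q values under 0.01.

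In windows reaching 50 bp to each side of the summits, A and T made up a median of 62.9% of the bases at the 12 member summits, with a range from 40.6 to 73.3%. The median was 65.3% over all reproducible summits and 55.4% over the 17875 pooled relaxed summits more than 1 kb from any of them. The Chro window was at 65.3%, the Trl intron window at 66.3% and the main Cp190 window at 71.3%, whereas the window near tin was at 40.6%. Any of the 8 words was found in 1 of the 12 windows, that of Chro, against 33.7% of all reproducible windows and 32.3% of the relaxed ones. With 100 bp to each side it was 4 of 12, against 58.4% and 53.4%. The shares of single words are given for 50 bp to each side. CGATA alone was in 17.0% of all reproducible windows and 12.8% of relaxed ones. GAGAG, the GAGA factor word, was in 11.2% and 13.2%. For TATCGATA the shares were 2.25% and 0.878%. TTTAAA was in the Chro window, in 17.3% of all reproducible windows and in 8.69% of relaxed ones. The window of the highest relaxed summit shared by Ibf1 and Ibf2 held the DRE, and that of su(Hw) held TTTAAA.

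A wider list of 28 genes for other insulator factors, partners, cohesin and condensin was examined by the same rule, and 10 had a reproducible summit (25.3% of protein-coding genes did). By the length classes given above, the counts were 1 of 2 short, 2 of 7 middle and 7 of 19 long genes. The median of the highest pooled relative signal was 0.511 over the 25 of the 28 genes with a pooled summit. The genes without any were dwg, which encodes the zinc finger insulator protein Zw5, Elba1, a subunit of a boundary factor, and Cap-G, a condensin subunit.

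JIL-1, which encodes the histone H3 kinase that binds Chromator, stood highest, with 4 reproducible summits. The highest lay in an intron, 7123 bp from the nearest JIL-1 start site, as the strongest Trl peak lay in an intron of Trl. Its relative signal was 3.81, 3.84 and 3.97 (3.87 ± 0.0853, SD, n = 3), between those of Trl and Cp190. Next came fs(1)h, a BET bromodomain protein gene (1.48 ± 0.269), and the condensin genes Cap-H2 (1.23 ± 0.217) and Cap-D2 (1.22 ± 0.0989). pzg, which encodes the interband partner Z4 of Chromator, reached 1.20 ± 0.183, and the condensin gene SMC2 reached 1.14 ± 0.151 (SD, n = 3 for each). The Cap-H2 summit was 23 bp upstream of MED7, a Mediator subunit gene, and the Cap-D2 summit 142 bp upstream of Bub3, a spindle checkpoint gene. That at SMC2 was 199 bp upstream of Ercc1, a DNA repair gene. At these 3 the summit lay between diverging genes, as at Cp190.

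**Figure D4:**
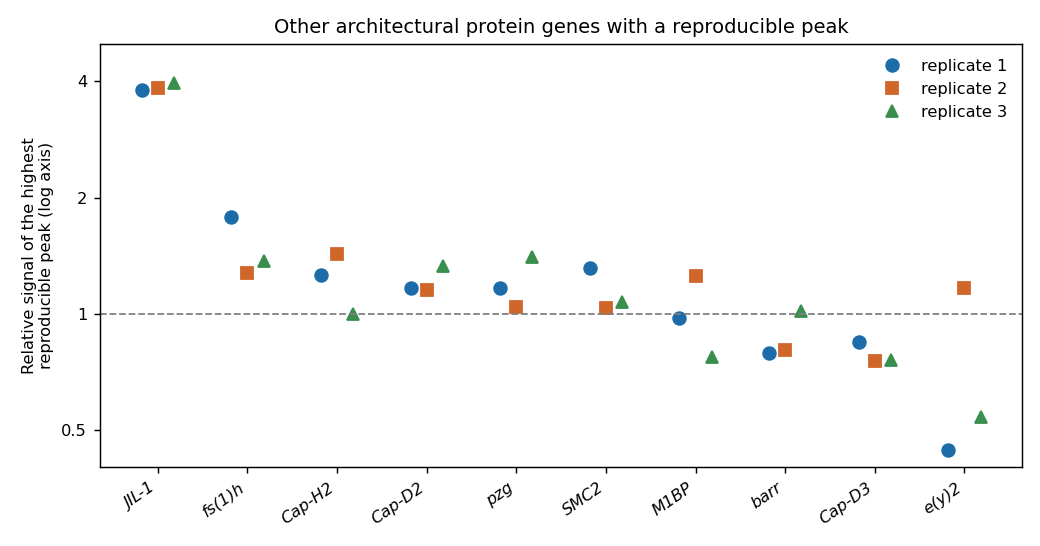
Relative signal (log axis) of the highest reproducible peak of the 10 wider-list genes that have one, in each of the 3 replicates, with the median reproducible peak as a dashed line. JIL-1 lies at 3.81 to 3.97 and the other genes lie between 0.444 and 1.78.

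Grouped after these values had been seen, the condensin genes had a reproducible summit in 5 of 7 cases (SMC2, barr, Cap-D2, Cap-D3 and Cap-H2). The cohesin genes had one in 0 of 6 (SMC1, SMC3, vtd, SA1, Nipped-B and wapl). Over all protein-coding genes the share was 25.3%. Every condensin and cohesin gene of the list except barr was among the 4649 longest genes, where the share was 40.2%. The Cap-D3 summit lay 1735 bp upstream of that gene and 31 bp downstream of the start site of Elp4, a subunit gene of the Elongator complex. That of barr lay 75 bp downstream of its start site and 127 bp upstream of lok. Each of the 5 condensin genes had only 1 reproducible summit, with a start site of another gene within 500 bp of it. None of these summits could be assigned to the condensin gene alone. With only the 1977 highest reproducible peaks, barr and Cap-D3 were lost and the condensin count was 3 of 7, and with 1000 bp upstream Cap-D3 was lost. No share of protein-coding genes was computed for these settings, so the shares above do not apply to them. Both complexes are rings that hold or fold DNA, cohesin being the one placed at insulator sites in vertebrates. The highest pooled relative signal at a cohesin gene was 0.594, at SA1, just below the reproducible set. The difference between these complexes was not tested. Of the 7 other DNA-binding factors 1 had a reproducible summit, against 25.3% of all protein-coding genes. The share was 13.6% among short genes and 22.0% among those of middle length, and 7 genes are too few to set against it. The gene was M1BP, of middle length (1.00 ± 0.242, SD, n = 3), with its summit 95 bp upstream of CG8202 and 298 bp upstream of M1BP.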

How the data were processed

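Peak lists on the dm6 build were used: 1 relaxed list for each of the 3 replicates, 1 of the pooled replicates and the IDR set, whose 3953 peaks are all in the pooled list with the same values. Peak heights are the signal column the authors deposited, whose scale no header states. The q value was read from the deposited −log10 column. The labels and headers name no aligner, peak caller or settings. The 5 dm3 lists were not used.

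Genes came from Ensembl release 115 (BDGP6, dm6 coordinates) without transposable elements, and sequence from RefSeq Release 6. Of the wider list, SA is annotated as SA1. At each reproducible summit the highest peak of a replicate within 100 bp was taken and divided by that replicate's median over reproducible peaks. Summits were set against start sites of every transcript. Words were searched on both strands with Python 3.11.15 and Biopython 1.88. Counting and matching were tested on simulated data.

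The members, lists and words were chosen with earlier results of these data known. Named genes are all members, each gene starting within 500 bp of their reproducible summits (of the precursors of mod(mdg4), examples), and from the wider list the 6 highest and those without a pooled summit. Barr, Cap-D3, M1BP, the cohesin genes and neighbours of other summits were named after their values were seen.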

Additional observations from a re-analysis of the deposited data

How the results depend on the processing

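The count of 7 member genes with a reproducible summit was 7 in each of 9 alternatives, among them the strongest peaks of each replicate alone, peaks shared when a replicate was left out (7 to 7), pooled peaks with a q value of at most 0.01, and 500 or 1000 bp upstream. In those the same 7 genes were found. It was 5 when only the 1977 highest peaks of the set were kept, where pita and CTCF were lost, 8 with 5000 bp upstream, where su(Hw) was added, and 6 within 500 bp of an own start site. Counting only summits more than 500 bp from the start sites of all other genes, an alternative chosen after seeing the data, left 3 (CTCF, Trl and pita), since the peaks of Chro, Cp190, BEAF-32 and mod(mdg4) lie near start sites of other annotated genes. The wider list had 10 genes, 9 with each replicate left out (9 to 9), 7 with the higher threshold, and 9 and 10 with 1000 and 5000 bp upstream. The share of protein-coding genes was computed only with all 3953 reproducible peaks, from 2 kb upstream (25.3%) and within 500 bp of an own start site (17.1%). Under the other settings a changed gene count cannot be told apart from a change shared by all genes. In windows reaching 100 bp to each side, 4 member windows held a word instead of 1 (58.4% of all reproducible windows did). The relative signals of the 7 genes moved by less than 1 SD when the distance or the top of the list was changed. Leaving out 1 of 3 replicates cannot move their mean by 1 SD, so those runs were read only for the order. Division by the median of all peaks raised all 7 (Chro to 36.3) and kept their order. Without replicate 1, mod(mdg4) (2.35) passed Cp190 (2.04) and pita (1.04) passed BEAF-32 (0.932). With 50 bp allowed, pita and CTCF each rested on 1 replicate and changed places. No paired analysis was possible because there is 1 group, so no groups share replicate numbers. Genes were compared within replicates. The number of reads is unknown, so the precision of a single peak height is too.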
